A study of Mus musculus with 9 samples.

Results

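Extrachromosomal circular DNAs of 250 to 450 bp were described in mouse hearts of 3 ages. They were taken from the authors' table of circles as the distinct positions whose length lies in that window, and numbered 65354 of 149584 circles (43.7%). Split reads are reads that cross the junction where the ends of a circle meet, and any split read in a library made the circle present there. Circle-seq had been run on hearts of wild type C57BL/6J mice in 9 libraries: 3 of embryonic day 18 (E18), 3 of neonatal mice at 3 days (3d) and 3 of adults at 8 weeks (8w). The labels number the libraries of each age as biological replicates 1 to 3 and name cardiocytes as the cell type. They do not say how many animals went into a library, and circle counts hold no marker level with which the cell type could be checked. All circles were enriched by digestion, alkaline treatment and column purification and amplified with phi29 polymerase before sequencing, so a split read count reflects amplified product.

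Extrachromosomal circular DNA consists of closed circles of chromosomal sequence that lie apart from the chromosomes. In chromatin, DNA is wound around histone octamers, and the length of the linker between them sets the repeat of the nucleosome array. Circles near the middle of the window described here are long enough for a pair of nucleosomes, and DNA on a nucleosome turns about once every helical repeat of the double helix. Circles were taken by length alone, and their positions, read support and occurrence by age were not used. The window itself was chosen with earlier results of these data known. The lengths and age differences below may thus not be independent of that choice.

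A circle of this size can hold a whole microRNA hairpin or the stretch before a gene's start, and the sequences below show what the circles with such content carried. Of the 1005 mouse hairpins in the RefSeq table (GRCm38.p6), 4 lay wholly inside a circle of 250 to 450 bp, each in 1 circle, and these were singled out after the counts were seen. One mature strand of each is given 5′ to 3′ with its seed, bases 2 to 8, in capitals; the 4 seeds differ from one another.
mmu-miR-133b-3p: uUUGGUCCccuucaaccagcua
mmu-miR-30a-5p: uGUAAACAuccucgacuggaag
mmu-miR-25-3p: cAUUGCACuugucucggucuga
mmu-miR-491-5p: aGUGGGGAacccuuccaugagg
miR-133b is a muscle microRNA, and its circle of 377 bp (chr1:20682681-20683057, outside annotated protein-coding genes) had 20 split reads in 3d replicate 2 and none in the other 8 libraries. The Mir30a circle (chr1:23272227-23272615) had 8 split reads, all in 3d replicate 3. The Mir25 circle of 341 bp (chr5:138165085-138165425) lay in Mcm7, a subunit gene of the replicative helicase, and had 36 split reads in 3d replicate 3 and 1 each in 3d replicates 1 and 2. The Mir491 circle of 390 bp (chr4:88121950-88122339) lay in Focad and had 31 split reads in 3d replicate 3. All 4 circles were read in neonatal libraries only, as were 35576 of the 65354 circles of this size (54.4%). As a comparison, 1 hairpin lay inside the 39977 circles under 250 bp and 4 inside the 14271 circles above 450 and up to 650 bp. The equal counts of 4 thus come from classes of unequal size.

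The starts of protein-coding genes (RefSeq, GRCm38.p6) were spanned by 108 of the 65354 circles (0.165%), with a median of 11 split reads and at most 155. Of these, 81 were in 1 library, 53 in any E18 library, 68 in any 3d library and 8 in any 8w library. The share was 0.0625% of circles under 250 bp and 0.273% of those above 450 and up to 650 bp, and no test was made of these descriptive shares. For 2 of the 3 circles with the most split reads, the bases before the start that lay inside the circle are given on the gene's strand, in lower case, with the first transcribed base in capitals. The other, over the start of Tpbpa, held only 10 such bases.
Evi2b: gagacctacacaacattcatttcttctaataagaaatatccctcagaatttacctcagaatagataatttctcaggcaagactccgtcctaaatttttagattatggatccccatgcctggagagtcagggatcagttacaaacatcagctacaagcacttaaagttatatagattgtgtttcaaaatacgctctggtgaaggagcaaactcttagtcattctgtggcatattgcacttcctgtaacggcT
Lef1: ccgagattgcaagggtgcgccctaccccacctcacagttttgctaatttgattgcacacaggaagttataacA
The Evi2b circle of 382 bp (chr11:79523733-79524114) held the whole upstream part of the RefSeq window, and the circle also lies within Nf1, the neurofibromin gene, and Gm21975. It had 141 split reads in E18 replicate 3 and none elsewhere. The Lef1 circle of 393 bp (chr3:131156222-131156614) lay over a start of Lef1, a transcription factor gene of Wnt signalling, with 154 split reads in 3d replicate 1 and 1 in E18 replicate 2. The Tpbpa circle of 359 bp (chr13:60941588-60941946) had 149 split reads in 3d replicate 3, and none in the other 8 libraries; the gene is known from placental trophoblast. Each of these 3 circles had nearly all of its reads in 1 library.

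Promoter windows were 300 bp, of which 250 lie before the start and 50 after it. A circle of 250 to 450 bp covered at least 150 bp of 120 of the 21263 protein-coding windows (0.564%). Those 120 windows had a median G+C content of 49.7% (quartiles 44.7 and 54.8), against 56.3% (48.3 and 64.7) over all windows. The letters GGGCGG, the core of the Sp1 site known as the GC box, were found on either strand in 15.8% of the 120 windows and in 46.2% of all. TATAAA was found in 19.2% against 12.6% and CCAAT in 34.2% against 38.2%; none of the 3 motifs is contained in another. Windows covered to the same extent by circles above 450 and up to 650 bp numbered 39, with a median G+C of 55.3% and GGGCGG in 41.0%, and those covered by circles under 250 bp numbered 22, with 57.5% and 45.5%. Neither the Evi2b nor the Lef1 stretch inside its circle held any of the 3 motifs. These are descriptions of the letters present, with no test.

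Split reads over all circles ran from 11377 in 8w replicate 1 to 846374 in E18 replicate 1, a range that spans libraries of the same age. The adult libraries had 11377, 194280 and 67182 split reads, the E18 libraries 63710 to 846374 and the 3d libraries 310110 to 665303. Values at equal split reads are given for the number of circles, the single-read share and the share found in another library. Intervals on single libraries are Wilson 95% intervals. They cover counting error only, because reads of amplified DNA do not each stand for a separate molecule.

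The question the study's design text poses is how far circular DNAs occur at different ages of the heart. For circles of 250 to 450 bp, adult libraries held far fewer than perinatal ones, and a smaller part of what they held was of this size. The E18 libraries had 18687, 4381 and 5424 such circles, the 3d libraries 15601, 12277 and 19442, and the 8w libraries 1251, 1172 and 666. All 3 adult libraries lay below all 6 perinatal ones. On the geometric mean, adults had 15.6-fold fewer than neonates and 7.69-fold fewer than E18 hearts, and the stages differed (F statistic in an exact permutation test with 280 partitions of 9 libraries, p = 0.0107, adjusted over 11 stage tests p = 0.0295). With 1 of 5 perinatal libraries left out (E18 replicate 2 or 3, or any 3d library) the adjusted p rose to between 0.0524 and 0.0786, with the direction kept. The 3d libraries had on average 2.03-fold as many as the E18 ones, with overlapping values (exact two-sided permutation p = 0.3, where 3 against 3 libraries cannot go below 0.1).

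The adult number was also lower at equal split reads. Thinned to the 11377 split reads of the smallest library, the E18 libraries kept 4196, 2556 and 2600 circles of 250 to 450 bp, the 3d libraries 3166, 3462 and 3466, and the adult ones 1251, 353 and 211. The means were 3117 ± 934 (SD, n = 3), 3365 ± 172 and 605 ± 564, and the stages differed in the exact permutation test (adjusted p = 0.0314). The E18 and 3d values overlapped, and the adult values lay below both. Without any 1 of the perinatal libraries the adjusted p was 0.0943 to 0.138. Thinning equalized split reads over circles of all lengths, so this number is not independent of the share of split reads on this size. After it, circles of 250 to 450 bp held 2280, 533 and 330 split reads in adults and 4508 to 6114 in perinatal libraries.

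As a share of a library's distinct circles, this size made up 53.0%, 48.5% and 51.7% at E18, 48.5%, 46.1% and 45.3% at 3d, and 31.8%, 7.96% and 10.02% at 8w. The 95% intervals of the adult shares were 30.4 to 33.3%, 7.54 to 8.41% and 9.32 to 10.8%, so that 8w replicate 1, the library with the fewest split reads, stood apart from the other adults. Shares averaged 51.1 ± 2.33% in E18, 46.6 ± 1.67% in 3d and 16.6 ± 13.2% in adult libraries (exact permutation test over 9 libraries, p = 0.00357, the smallest it allows, adjusted p = 0.0196). Without any 1 of the perinatal libraries the adjusted p was 0.0864 to 0.118, and the adult shares stayed the lowest. As a share of split reads the fall was from 50.7 ± 3.04% and 43.2 ± 3.12% to 9.18 ± 9.44% (adjusted p = 0.0196 by the same exact test). Each adult library lay below each perinatal one by both measures.

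The ratio to the next size up overlapped between ages. The number of circles of 250 to 450 bp per circle above 450 and up to 650 bp had a mean of 5.08 ± 0.317 in E18 libraries, 4.35 ± 0.753 in 3d libraries and 5.14 ± 1.63 in 8w libraries (n = 3 each, exact permutation p = 0.629). The 3 ages overlapped, from 3.55 in 3d replicate 3 to 7.02 in 8w replicate 2. In contrast, circles under 250 bp numbered 1810, 13125 and 5539 in the adult libraries, against 1251, 1172 and 666 of 250 to 450 bp.

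**Figure D1:**
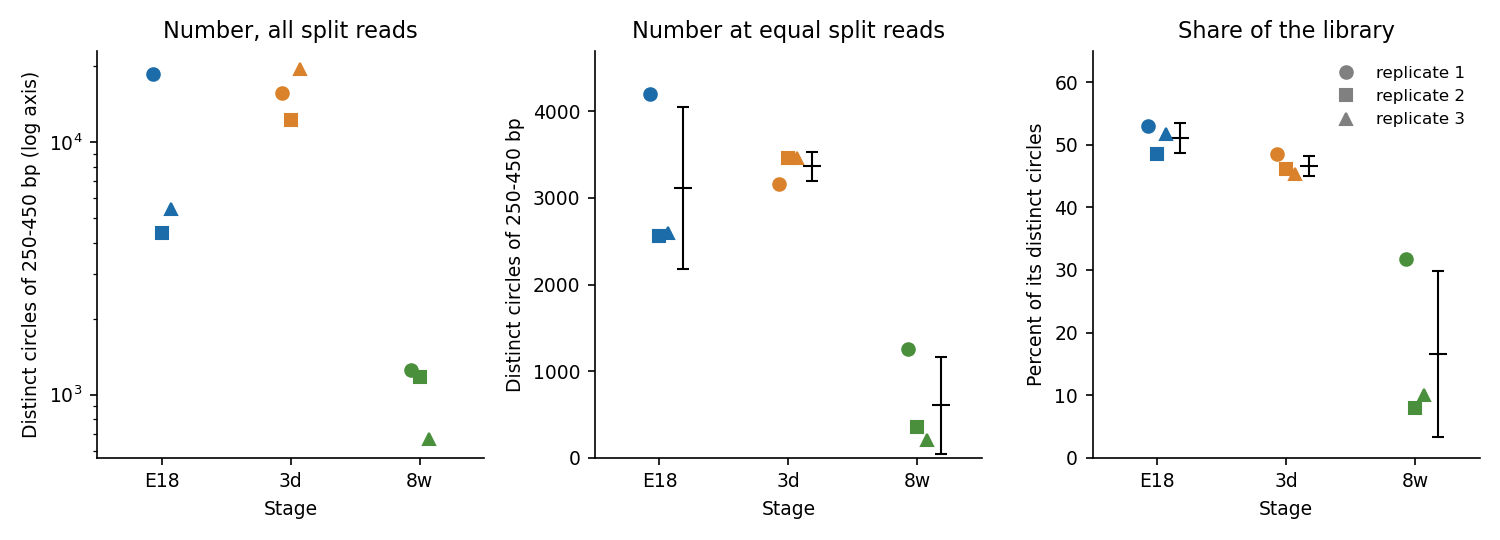
Distinct circles of 250 to 450 bp in each of 9 libraries by stage: the number on a log axis, the number after thinning to 11377 split reads, and the percent of the library's distinct circles. Points are libraries, with marker shape for the replicate, and bars show mean and SD (n = 3) in the middle and right panels. The 3 adult libraries lie below the 6 perinatal ones in each panel.

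Lengths were not spread evenly over the window. Over all libraries the median length was 367 bp and the quartiles were 351 and 383 bp. The most frequent length was 359 bp, with 1468 circles, and the least frequent was 298 bp, with 20. At the edges of the window, 61 circles were of 250 bp and 29 of 450 bp, next to 66 that were 1 bp shorter than the window and 28 that were 1 bp longer. At the upper border the counts were low. Toward the lower border they rose again, from 20 circles at 298 bp to 61 at 250 bp. The window thus holds the peak and, below it, a stretch in which circles become more frequent toward shorter lengths.

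On top of that peak stood a ladder of regular steps. In a running mean over 3 bp of the pooled E18 libraries, local maxima fell at 326, 337, 348, 359, 370, 381 and 392 bp, with a spacing of 11 bp at each of the 6 steps. The minima of that running mean lay at 330, 342, 353, 365, 376 and 388 bp. Without smoothing each of them lay within 1 bp of these lengths, and the maxima were 10 to 12 bp apart. Because the positions were picked in the E18 libraries, the 3d and 8w libraries are the ones that bear on it. Circles within 1 bp of the first 6 maxima outnumbered those within 1 bp of the minima by a ratio of 1.72, 1.58 and 1.62 in the 3d libraries and 1.63, 1.39 and 1.70 in the 8w libraries, against 1.68, 1.77 and 1.63 at E18. Among neonatal circles present in no E18 library the ratio was 1.63 (9511 against 5822 circles). Among adult circles in no E18 library it was 1.49 (368 against 247), and among those in neither E18 nor 3d libraries it was 1.26 (63 against 50).

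**Figure D2:**
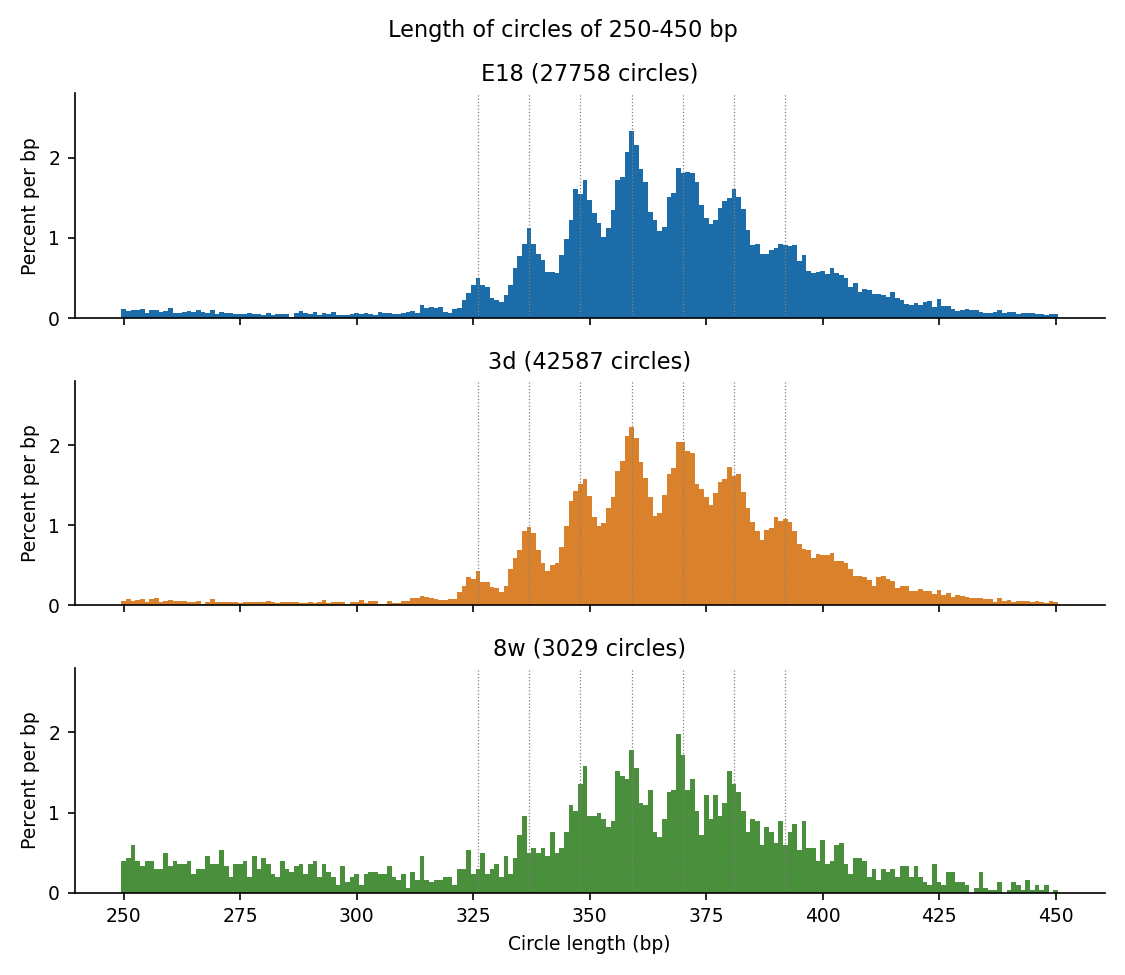
Percent of the distinct circles of 250 to 450 bp at each single bp of length, for E18, 3d and 8w libraries pooled by stage (27758, 42587 and 3029 circles). Dotted lines mark the 7 maxima, 11 bp apart, of a running mean over 3 bp at E18; the bars are not smoothed. The highest lengths at 3d lie within 2 bp of them, and at 8w a low level from 250 bp on lies beneath a noisier ladder.

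A larger part of the perinatal than of the adult circles lay near the middle of the peak. Lengths from 340 to below 390 bp made up 68.1%, 66.3% and 65.8% of the circles at E18, 68.5%, 65.1% and 70.3% at 3d, and 64.0%, 39.2% and 59.2% at 8w. An even spread over the 201 lengths of the window would give 24.9%. The band from 340 to below 390 bp was chosen near a length seen in earlier results of these data. An excess over an even spread thus restates that choice, and the stage test uses the same band. The stages differed (exact permutation test, p = 0.0214, adjusted p = 0.0393), but the adjusted p was 0.0567 without 8w replicate 2 and 0.102 to 0.138 without any 1 of the perinatal libraries. The adult mean minus the mean of the other stages was -13.2 percentage points, and -5.75 points without 8w replicate 2. Median lengths ran from 365 to 367 bp at E18 and from 368 to 369 bp at 3d, and were 366, 346 and 366 bp in the adults (exact permutation test, adjusted p = 0.148). The short side of the window, from 250 to below 320 bp, held 9.83%, 38.4% and 12.01% of the adult circles and 2.22 to 6.03% of those in each perinatal library. Among circles from 320 to below 420 bp alone, a comparison made after seeing the data, those from 340 to below 390 bp made up 73.7%, 68.0% and 70.4% in adults and 72.1 to 73.9% in perinatal libraries, so that 8w replicate 1 lay within the perinatal range.

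Most adult circles of this size lay at positions that E18 or 3d libraries also held. Of the circles in the 3 adult libraries, 90.5% (95% interval 88.7 to 92.0%), 53.8% (51.0 to 56.7%) and 84.8% (81.9 to 87.4%) had the same start and end as a circle present at another stage. Among the same libraries' circles under 250 bp the shares were 35.7%, 19.3% and 21.9%. Among their circles above 450 and up to 650 bp they were 92.3%, 70.7% and 89.9%, so the pattern was not confined to the 250 to 450 bp size. In the E18 libraries 23.01 to 25.1% of the circles of 250 to 450 bp were also at another stage, and in the 3d libraries 28.3%, 10.9% and 9.72%.

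Many of these adult circles had a single split read. In 8w replicates 1, 2 and 3, 78.7%, 33.8% and 58.1% of the circles of 250 to 450 bp had a single split read, and 97.8%, 95.5% and 98.7% of those single-read circles were present in another library. Of the adult circles with 2 or more split reads, 65.9%, 32.7% and 66.7% were at another stage. Perinatal single-read shares were 5.08%, 15.7% and 11.5% at E18 and 33.9%, 8.98% and 8.74% at 3d (exact permutation test over stages, adjusted p = 0.0786). Mean split reads per circle were 22.9, 6.94 and 18.5 at E18, 8.93, 12.5 and 13.5 at 3d and 1.82, 7.60 and 2.94 at 8w (adjusted p = 0.0884 by the same exact test).

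Both measures depend on depth. Thinned to 11377 split reads, the single-read shares were 74.8%, 51.9% and 48.7% at E18, 69.1%, 71.1% and 78.7% at 3d and 78.7%, 67.5% and 71.0% in the adults. The ages then overlapped, and adults minus the mean of the other stages moved from 42.9 to 6.64 percentage points (exact permutation test, adjusted p = 0.26). The share of circles of 250 to 450 bp found in any other library, with all libraries thinned, was 5.24%, 5.49% and 4.59% at E18, 8.51%, 4.82% and 4.44% at 3d and 33.2%, 10.1% and 24.6% in the adults. Under 250 bp it was 23.6%, 4.40% and 5.90% in the adults. The labels do not say which libraries were sequenced together, so reads assigned to the wrong library could not be checked, and their part in these shares was not tested.

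**Figure D3:**
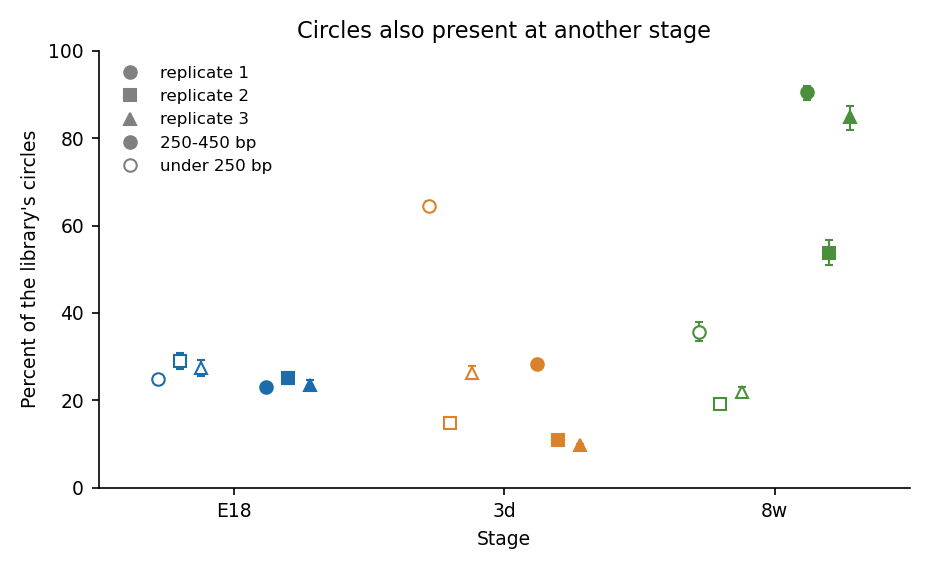
Percent of each library's circles that are also present at another stage, for circles of 250 to 450 bp (filled) and under 250 bp (open). Bars are Wilson 95% intervals of counting error, and marker shape gives the replicate. In adult libraries the filled points (53.8 to 90.5%) lie above the open ones (19.3 to 35.7%), and at E18 they lie slightly below them.

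Circles found at a single stage were therefore compared on their own, an alternative chosen after seeing these shares. That filter is itself set by stage. It took out 90.5%, 53.8% and 84.8% of the adult circles of 250 to 450 bp, and 9.72 to 28.3% in each perinatal library. What it took out of the adults were positions that perinatal libraries held, so the p-values below are no independent tests of stage. The adult libraries then held 119, 541 and 101 circles of 250 to 450 bp, the E18 libraries 14387, 3281 and 4148, and the 3d libraries 11185, 10933 and 17553. They made up 9.002%, 4.83% and 2.265% of the adult circles found at no other stage, against 50.02 to 54.2% at E18 and 45.6 to 52.0% at 3d (exact permutation test, adjusted p = 0.0262). Their median length was 332, 297 and 331 bp in adults and 364 to 369 bp in each perinatal library (adjusted p = 0.0196). Lengths from 340 to below 390 bp made up 27.7%, 20.3% and 25.7% of them in adults, near the 24.9% of an even spread, and 66.0 to 70.6% in perinatal libraries (adjusted p = 0.0327). The adult lengths were not evenly spread, however. Those from 250 to below 320 bp made up 45.4%, 61% and 44.6% in adults, where an even spread would give 34.8%, and 1.95 to 5.88% in perinatal libraries. All 3 adult libraries lay outside the perinatal range in each of these measures.

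**Figure D4:**
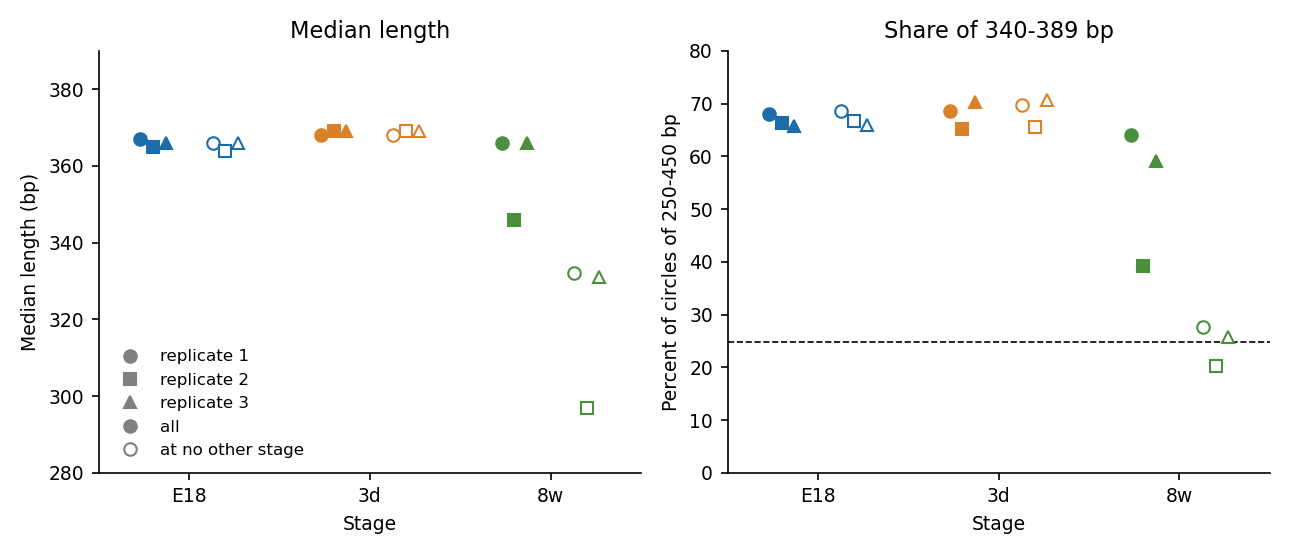
Median length (bp) and percent of lengths from 340 to below 390 bp among circles of 250 to 450 bp in each library, for all such circles (filled) and for those present at no other stage (open). Marker shape gives the replicate, and the dashed line is the 24.9% of an even spread of lengths. The open adult points fall to medians of 297 to 332 bp and shares of 20.3 to 27.7%, whereas open and filled points nearly coincide at E18 and 3d.

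Recurrence at exact positions was rare. Only 1 library held 53095 of the 65354 circles (81.2%), while 11117 occurred in 2 libraries and 1142 in 3 or more. By stage, 21310 were seen at E18 only, 35576 at 3d only and 746 at 8w only, and 298 were seen at all 3 ages. Among the 12259 circles in 2 or more libraries, the largest count had a median of 12 split reads and the next largest a median of 1, and in 66.2% the next largest was exactly 1. Only 872 of 49619 circles that reached 5 split reads in a library (1.76%) did so in 2 or more. A shared position was thus usually a well supported circle in 1 library and a single read in another.

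Pairs of libraries shared few circles. The Jaccard index, shared circles over circles in either library, was 2.55 ± 2.64% for the 9 pairs within a stage and 1.68 ± 1.49% for the 27 pairs between stages (exact one-sided permutation test over 280 partitions, p = 0.05). The highest values involved 3d replicate 1, with 8.04% against E18 replicate 1, 7.84% against 3d replicate 3 and 6.45% against 3d replicate 2. Without 3d replicate 1, the excess within stages was 0.0374 percentage points (exact permutation p = 0.339), and it was 0.869 with all 9 libraries. Without 3d replicate 2 or 3 it was 0.296 and 0.0822 points (exact permutation p = 0.354 and 0.425), and without E18 replicate 1 or 8w replicate 1 it was 1.49 and 1.31 points (exact permutation p = 0.0214 and 0.0393). The 3 adult pairs had 0.934 to 1.13%, and they shared 27, 18 and 17 circles. Unequal library sizes limit this index. For example, 8w replicate 1 shared 400 of its 1251 circles with 3d replicate 1, which held 15601, and the index was 2.43%. The contrast within against between stages was not adjusted for library size.

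One circle of 359 bp on chromosome 4 (chr4:136870272-136870630, outside annotated genes) was present in all 9 libraries, with 12, 11 and 144 split reads at E18, 12, 10 and 3 at 3d and 7, 2 and 1 at 8w. The next 2 by number of libraries were in 7. One of them, of 418 bp in Egflam (chr15:7254639-7255056), a gene of an extracellular matrix protein, had 117 split reads in E18 replicate 1 and at most 3 elsewhere. The other, of 348 bp on chromosome 4 (chr4:150884568-150884915), had at most 8 in any library. A circle of 342 bp in Sfi1 (chr11:3185165-3185506), which encodes a centrosome protein, was in 6 libraries, with 61 split reads in E18 replicate 1, 24 and 14 in 3d replicates 1 and 2, and 1 or 2 in 3 others. A circle of 377 bp where A530032D15Rik and C130026I21Rik overlap (chr1:85099279-85099655) was also in 6, with 45 in E18 replicate 1. Sfi1 and both Rik genes are known to have near-identical copies in the mouse genome, so the placement of their reads is uncertain.

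The circles with the most split reads each had most of them in 1 library. At E18 these were a 260 bp circle in Rhbg and Tsacc with 639 split reads in replicate 1, a 357 bp circle in Tnpo1, a nuclear import receptor, with 607 in replicate 3, and a 350 bp circle on chromosome 16 with 564 in replicate 1. At 3d they were a 380 bp circle in E330013P04Rik with 443 in replicate 1, which also had 118 in E18 replicate 1, a 336 bp circle on chromosome 18 with 442 in replicate 1, and a 326 bp circle on chromosome 4 with 423 in replicate 2. At 8w all 3 came from replicate 2, with 97, 86 and 84 split reads on chromosomes X, 11 and 13, at lengths of 368, 381 and 408 bp. No other library of the same stage had more than 1 split read on any of these 9 circles.

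Circles that overlap one another need care. Of 188 pairs of circles of 250 to 450 bp that overlapped reciprocally by at least 80%, all 188 were in a common library, and in 71.8% of the 156 common libraries with 5 or more split reads on either circle the counts of the pair lay within 1.25-fold. Of 1662 pairs that lay apart but within 1 kb, 30.2% were in a common library and 10.8% of 437 comparable counts were within 1.25-fold. No pair shared an end, and the origin of such pairs was not tested. In a library, 0.992% of circles of 250 to 450 bp had such a neighbour at 50% reciprocal overlap on average, against 0.186% of circles above 450 and up to 650 bp, and the share was higher in 9 of 9 libraries (exact sign-flip permutation test, p = 0.00391, the smallest it allows, adjusted over 14 class comparisons p = 0.0547). Circles under 250 bp had 1.22%, and the share of those of 250 to 450 bp was the higher one in 4 of 9 libraries (exact sign-flip permutation test, adjusted p = 0.517). The share with a neighbour also depends on how many circles of the class a library holds. Circles of 250 to 450 bp were 3.55 to 7.02 times as many as those above 450 and up to 650 bp. Class size was not adjusted for, so its part in the difference cannot be told apart.

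Circles of 250 to 450 bp were spread over all chromosomes. Autosomes carried 22.3 to 27.5 of them per Mb, with chromosome 9 highest and chromosome 7 lowest, the X chromosome carried 14.8, and 14 circles lay on the Y chromosome. The share of circles on a chromosome differed by stage for 0 of 21 chromosomes after adjustment, and 1 had p under 0.05 by the exact permutation test. That was chromosome 14, which held 4.73 ± 0.184% of E18, 4.62 ± 0.0866% of 3d and 3.73 ± 0.205% of 8w circles (n = 3 each, exact permutation p = 0.0143, adjusted p = 0.3).

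Protein-coding genes overlapped 42.2 ± 0.946% of the circles of 250 to 450 bp at E18, 43.5 ± 0.984% at 3d and 40.3 ± 0.337% at 8w (n = 3 each). The adult libraries, at 40.6%, 40.4% and 39.9%, lay below the perinatal ones, which ran from 41.2 to 44.5% (exact permutation test, p = 0.00714, adjusted p = 0.0262). Leaving out any 1 library except E18 replicate 3 or 3d replicate 1 ended the call (adjusted p of 0.0524 to 0.0786). The difference was not called among circles found at a single stage (41.7%, 43.4% and 39.4% on average, exact permutation p = 0.536). Within libraries the gene share was higher than that of circles under 250 bp by 1.16 percentage points on average, in 7 of 9 libraries (exact sign-flip permutation test, adjusted p = 0.0547). Against circles above 450 and up to 650 bp the difference was -1.55 points, with a higher share in 1 of 9 libraries (exact sign-flip permutation test, adjusted p = 0.32). Starts of genes lay within 2 kb of 2.91 ± 0.131%, 2.60 ± 0.244% and 3.16 ± 0.598% of the circles of E18, 3d and 8w libraries (p = 0.268 by exact permutation, and adjusted p = 0.0295 without 8w replicate 1).

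Genes were compared by the number of distinct circles of 250 to 450 bp that overlap them in each library, scaled by the library's total of such circles. A gene's total is the sum of these occurrences, in which a circle found in 2 libraries counts in each. A total of 9094 genes had at least 1 such circle. The 701 with 10 or more over all libraries were tested, with a median of 14. No gene passed an adjusted p of 0.05 in edgeR's quasi-likelihood test for 3d over E18, 8w over 3d or 8w over E18, so 0% of the 701 were called in each. At an unadjusted p under 0.05 there were 22, 10 and 14 genes, and the smallest adjusted p were 0.681, 0.666 and 0.695. DESeq2 likewise called 0, 0 and 0, with 0, 8 and 14 genes at an unadjusted p under 0.05. With TMM scaling in place of library totals, edgeR called 0, 7 and 3 genes, all lower in adults, and 14, 237 and 190 genes had p below 0.05 before adjustment. For 8w over 3d the 7 included Csmd1, Npas3, Ptprd, Cntnap2, Macrod2 and Gm20388. In simulated counts for 8w over 3d, 94.9% of 175 genes raised 16-fold in adults were recovered and 8% of those raised 4-fold. Increases of 4-fold would thus mostly be missed at this depth, and other sizes of increase were not simulated. Decreases in adults were not simulated, so the power to find them is not known. Csmd1, with 46 circles at 3d and 0 at 8w, had an edgeR adjusted p of 0.666. Of the 701 genes, 388 (55.4%) had 0 circles in the 3089 adult occurrences, which allows up to 9.71 per 10000.

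The genes with the most circles of this size were long. Gm20388, a predicted gene spanning 4435 kb, had 155 circle occurrences over the 9 libraries: 35, 5 and 8 at E18, 29, 35 and 36 at 3d and 4, 0 and 3 at 8w. Fgfr2, a fibroblast growth factor receptor, had 104, but over the span of 2961 kb given in the deposited annotation, and the RefSeq gene of 104 kb held 6 of them. Cntnap2, a neurexin-family adhesion gene, had 79, as did Ptprd, a receptor tyrosine phosphatase. Macrod2, an ADP-ribosylhydrolase gene, had 73, Csmd1 had 70, Pcdh15, a protocadherin of hair cells, had 64, the synaptic scaffold gene Dlg2 had 63 (83 over its longer RefSeq span), Nrxn3 had 62 and the fragile-site gene Fhit had 60. Apart from Gm20388 and Fgfr2 these genes span 1356 to 2271 kb in the deposited annotation.

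Per length these genes carried 34.8 to 46.5 circle occurrences per Mb of gene, against 36.8 over all genes with a circle. Csmd1 had 14, 5 and 5 circles at E18, 15, 11 and 20 at 3d and 0 in each adult library. Its 24 E18 circles are 8.42 per 10000 and its 46 neonatal ones 9.72, and the adult limit of 9.71 per 10000 is about as high. Pcdh15 had 2, 4 and 0 in adults, 19.4 per 10000 over the stage, against 7.72 at E18 and 7.61 at 3d (edgeR unadjusted p = 0.0887 for 8w over 3d).

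**Figure D5:**
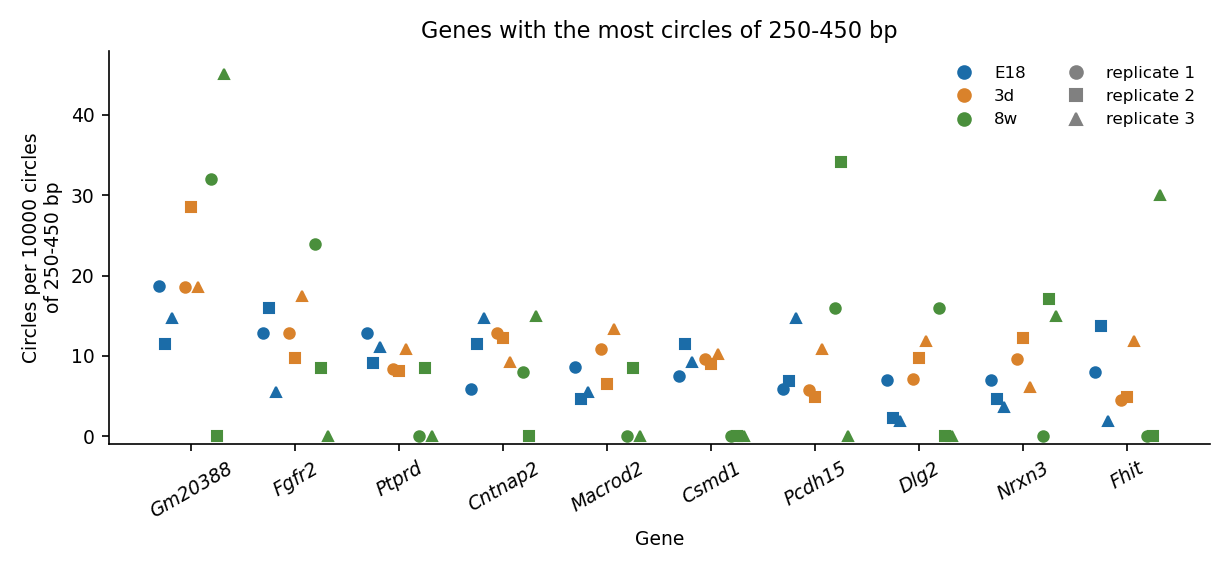
Circles of 250 to 450 bp per 10000 such circles in the library, for the 10 genes with the most of them. Each point is a library, with colour for the stage and marker shape for the replicate. Adult points are the most widely spread, and 1 circle weighs most in these smallest libraries; Csmd1 is at 0 in all 3 adult libraries.

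Among genes of at least 20 kb, the densest were shorter ones with few circles. Prkar1a, a regulatory subunit of protein kinase A, had 346 occurrences per Mb, from 7 occurrences of 4 distinct circles in 20.2 kb. Sfi1 followed with 292 per Mb and 18 occurrences, 3, 1 and 2 at E18, 5, 1 and 3 at 3d and 2, 1 and 0 at 8w. Mep1b, Gpt2, Pi4k2a, Nadk, Ctc1, Mbtps1, Ddb2 and Hebp1 had 228 to 287 per Mb from 5 to 12 occurrences each. Of these 10 genes, Sfi1 and Mbtps1 had enough circles to be tested, and neither passed.

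The genes with the smallest unadjusted p, of which none passed adjustment, showed how few circles underlie a gene. For 3d over E18, Sncaip, which encodes a synuclein-binding protein, had 0 circles in each E18 library and 5, 3 and 4 at 3d (edgeR unadjusted p = 0.00188). Of the next genes, Ldlrad4 had 0 at E18 and 3, 2 and 6 at 3d, and Cald1, which encodes caldesmon, had 0 and 4, 2 and 5, both with an edgeR unadjusted p of 0.00292. Ebf1 had 1 circle at E18 and 14 at 3d (edgeR unadjusted p = 0.00874). In the other direction, Thsd7b had 13, 3 and 3 circles at E18 and 6, 1 and 4 at 3d, a fitted log2 difference of -1.47 (edgeR unadjusted p = 0.00788), and Aff3, Hmga2, Eif4g3 and Pcdh7 had log2 differences of -1.54 to -1.93 at p of 0.0201 to 0.0327. Hmga2, a chromatin protein of embryonic growth, had 3, 3 and 2 circles at E18, 2, 0 and 1 at 3d and 0 in adults.

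For 8w over 3d, the genes lower in adults with the smallest p included Csmd1, Npas3, Grm7 and Wwox, which had 46, 29, 26 and 25 circles at 3d and 0 at 8w (edgeR unadjusted p = 0.0317 to 0.0988). Those higher in adults were Ccdc178, Garem, Cmip, Arhgef12 and the agouti gene a, each with 3 adult circles and unadjusted p of 0.0213 to 0.0301. In Ccdc178, Garem, Arhgef12 and a those 3 came from 1 library, and in Cmip 1 came from each. The RefSeq span of a held 6 of its 13 occurrences. For 8w over E18, Ebf1, Trabd2b, Cmip and Grin2b had 3, 3, 3 and 4 adult circles and p of 0.00354 to 0.0115, and Csmd1, Hs6st3 and Csmd3 had none in adults (p of 0.0466 to 0.084). These differences rest on a handful of adult circles.

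Gene lists for the heart are described by counts only. The circle density per Mb of gene is given over each list's genes that held a circle of any length, beside 36.8 over all such genes. Genes without a circle add no length, which raises these densities by an amount that differs between lists. Of 22 sarcomere genes, the building blocks of the contractile apparatus, 12 had a circle of 250 to 450 bp, at 28.8 per Mb, and the list had 14 circles in E18, 31 in 3d and 0 in 8w libraries. Nebl, a Z-disc protein gene, had 3, 1 and 0 at E18 and 3, 3 and 3 at 3d, and Ttn, the giant spring of the sarcomere, had 3, 0 and 1 at E18 and 1, 1 and 1 at 3d. The 16 of 18 genes of calcium handling and ion channels with a circle had 30.8 per Mb, among them Cacnb2, a calcium channel subunit, with 20 occurrences and Itpr2, an IP3 receptor, with 15. The 13 of 16 cardiac transcription factor genes had 37.7 per Mb, with Esrrg at 21 and Zfpm2 at 13, and the 8 of 15 genes of fatty acid oxidation had 41.7 per Mb from 17 occurrences, including 5 in Slc27a1 and 3 in Acaa2.

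Cell cycle genes had circles in 8 of 14, at 49.7 per Mb, with 26 in Cdk14 and 9 in Cdk6. Fibroblast and matrix genes had them in 12 of 14, at 37.4 per Mb, with 18 in Lama2 and 11 in Fbn1. The long neuronal and fragile-site genes had them in 19 of 20 listed names, at 34.1 per Mb, with 112 ± 13.0 per 10000 in E18, 122 ± 15.1 in 3d and 90.3 ± 43.9 in 8w libraries (SD, n = 3). Tested members numbered 1, 5, 5, 0, 1, 3 and 19 in the order of the lists given here, and 0 were called in each comparison, as among all 701 genes. The median fitted log2 difference for 3d over E18 was 0.18 for the tested long genes, 0.92 for the calcium and channel genes and -0.57 for the transcription factors, beside 0.07 over all genes tested. Adult libraries had 0 circles in 2 of the 5 tested calcium and channel genes, 4 of the 5 transcription factor genes, 2 of the 3 fibroblast and matrix genes and 8 of the 19 long genes, beside 388 of all 701. For 8w over 3d and 8w over E18 the median was 0.45 and 0.20 for the calcium and channel genes, whose whole list had 6 adult circles, and -1.48 and -1.14 for the long genes. It was -3.84 and -2.57 for the transcription factors and -3.51 and -3.07 for the fibroblast and matrix genes. The 1 tested gene had -3.84 and -3.44 in the sarcomere list and -4.63 and -4.68 in the cell cycle list. Over all genes tested the median was -3.07 in both. The median gene over all had 0 adult circles, so that -3.07 depends on the fit's prior count and is no measured fold. The same limit applies to the transcription factor, fibroblast and matrix, sarcomere and cell cycle lists. Most or all of their tested genes had 0 adult circles. In DESeq2 the median over all genes tested was instead positive, at 0.34 with 3d as the baseline and 0.50 with E18 as the baseline. The sign of the adult median thus depended on the method.

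Over all libraries of a stage the sarcomere list had 4.91 circles per 10000 at E18 and 6.55 at 3d. Both lie below the 9.71 per 10000 that 0 adult circles allow, so a difference from the adults was not detectable at this depth.

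Single circles were compared by split reads in one fit of all 2893 circles of any length present in at least 3 libraries, of which 1142 were of 250 to 450 bp. edgeR's quasi-likelihood test called 0 of the 1142, as it called 0% of the 2893, for each pair of ages, and 63, 1 and 0 of the 1142 had an unadjusted p under 0.05 for 3d over E18, 8w over 3d and 8w over E18. DESeq2 called 1, 3 and 2 on 3 different circles, which were named after their values were seen: chr3:127756423-127756811 with 53 split reads in E18 replicate 3, chr5:97345003-97345405 with 59 in 3d replicate 1, and chr3:131484307-131484569 with 57 in E18 replicate 3. Each had at most 2 split reads in any other library. In simulated counts for 8w over 3d, 0 of 200 circles raised 16-fold in adults were recovered, so this comparison could not detect increases of that size. Decreases were not simulated.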

How the data were processed

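Circle-seq libraries of C57BL/6J mouse hearts at E18, 3d and 8w (3 each) were analysed from 1 deposited table. The circles came from Circle-Map, per the file headers, and the deposited counts are split reads per eccDNA and library. The authors also deposited log2 values normalized with edgeR, which equal 3.01 at a count of 0 and served here as a check. The submitters' processing notes name edgeR (entry 0.6.9), bedtools 2.27.1, BWA 0.7.12, cutadapt 1.9.1 and SAMtools 1.9, and the builds GRCm38 and mm10. The filters applied and the total reads were not stated there.

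The 154938 lines were reduced to 149584 distinct positions, starts are printed 1 higher than in the table, and positions of 250 to 450 bp were kept. The length window and the gene lists were chosen with earlier results of these data known. The deposited annotation was used for overlap with genes, and RefSeq GRCm38.p6 tables for starts, promoters and microRNAs; of 14085 deposited genes with a circle, 12777 symbols matched RefSeq. No genome sequence was used here.

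Values per library were compared by exact permutation tests of the F statistic over 280 partitions, between stages by two-sided exact tests, and between length classes by sign flips over 9 libraries, with Benjamini-Hochberg adjustment over 11 stage tests, 14 class comparisons or 21 chromosomes at 0.05. Depth was equalized by 20 seeded thinnings to 11377 split reads. Gene and circle counts were tested with edgeR 4.0.16 (glmQLFit, glmQLFTest) in R 4.3.3, with library totals for genes of 10 or more circles and TMM for circles in 3 or more libraries, and DESeq2 1.42.0 as an alternative. All were tested on simulated data. Named genes were, for each comparison and direction, the 5 with the smallest p, the 10 with the most circles, the 10 densest of at least 20 kb and 2 of each list; named circles were the 5 in the most libraries and the 3 with the most split reads for each stage and over gene starts. Some genes that this rule names are not reported here. Other work used scipy 1.17.1, pandas 2.3.3, matplotlib 3.10.9 and numpy 2.4.6 in Python 3.11.15. The labels call the replicates biological and give no count of animals, so p-values measure the spread between these libraries.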

Additional observations from a re-analysis of the deposited data

Results flagged for a closer look

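The share of circles found in another library, taken as circles of 250 to 450 bp minus circles under 250 bp of the same library, is set apart by age, with an exact permutation p of 0.0143 over 9 libraries. It was picked because its values differ by age, so this unadjusted p restates the choice and is no independent evidence. The difference was 37.5, 33.1 and 59.0 percentage points in the 8w libraries, -1.96, -2.82 and -3.56 at E18 and -32.3, -1.36 and -16.9 at 3d. All 3 adult libraries were positive and all 6 perinatal ones negative at full depth. Thinned to 11377 split reads, a check added after seeing the data, the difference was 9.60, 5.68 and 18.7 points in the 8w libraries, 0.192, -1.68 and -0.754 at E18 and -16.1, -0.946 and -4.94 at 3d, so that its size depends on depth and E18 replicate 1 was no longer negative. Against circles above 450 and up to 650 bp the difference was -1.64, -15.6 and -5.46 points in the adult libraries.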

How the results depend on the processing

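Of 396 values recomputed under alternatives, 336 kept their direction and their side of the threshold. The planned sequence features of the circles were not run because no genome was used. Values below are adjusted p from the exact tests. Same-numbered libraries were no more alike than others: their deviations over 701 genes correlated at -0.0765 to 0.0369, and those of differently numbered libraries at -0.096 to 0.0906. With a median of 14 circles per gene, such a check could miss a pairing, so none can be excluded. With the replicate block the number of circles, the share of circles, the share of split reads, the number at equal split reads and the gene share each had 0.102, and the share from 340 to below 390 bp 0.131; the smallest unadjusted p of that design is 0.0278. The replicate block left 0 genes and 0 circles called, and it changed no other call. With 2 or more split reads, median length became called (0.0131), as did sharing within stages (exact permutation p = 0.0143), and split reads per circle against circles under 250 bp reversed (0.766). In a window of 300 to 430 bp the ratio to circles above 450 and up to 650 bp reversed (0.295) and the single-read share became called (0.0449). With thinning, the single-read share against circles above 450 and up to 650 bp reversed (0.292). Among circles at a single stage, an alternative chosen after seeing the data, median length became called (0.0196) and the gene share lost its call (0.655). The filter of that alternative depends on stage, so it gives no independent test.

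Leaving out each library in turn gave 0.0196 to 0.0786 for the number, 0.0196 to 0.118 for the share of circles, 0.0196 to 0.0524 for the share of split reads (lost without 3d replicate 3), 0.0314 to 0.138 for the number at equal split reads, 0.0393 to 0.138 for lengths from 340 to below 390 bp, 0.0393 to 0.0786 for the gene share, 0.0458 to 0.157 for the single-read share, 0.0458 to 0.181 for split reads per circle (both called without 8w replicate 2), 0.0295 to 0.534 for gene starts within 2 kb (called without 8w replicate 1), 0.271 to 0.954 for the ratio to circles above 450 and up to 650 bp (reversed without 8w replicate 2), 0.557 to 0.992 for split reads per circle against circles under 250 bp (reversed without any 1 adult library), and 0.0214 to 0.425 for sharing within stages (called without E18 replicate 1 or 8w replicate 1). The number lost its call without E18 replicate 2 or 3 or any 3d library, the share of circles and the number at equal split reads without any perinatal library, lengths from 340 to below 390 bp without any library but 8w replicates 1 and 3, and the gene share without any library but E18 replicate 3 and 3d replicate 1. The adult deficit kept its direction: 8w minus the mean of the other stages stayed between -3.65 and -3.13 on the log2 scale for the number and between -39.8 and -27.9 points for the share. The difference from 340 to below 390 bp moved from -13.2 to -5.75 points without 8w replicate 2.

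TMM in place of library totals called 7 genes lower at 8w than at 3d (among them Csmd1, Macrod2, Npas3, Ptprd, Cntnap2 and Gm20388) and 3 lower than at E18 (among them Ptprd and Csmd1). DESeq2 called 1, 3 and 2 circles. Depth limits the adult libraries most, where 3 circles are 9.71 per 10000.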
